A study of Mus musculus with 28 samples.

Results

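Microglia are the resident macrophages of the brain, and they take up antibody-coated material through Fc gamma receptors, which bind the constant part of IgG. The family as measured here had 5 genes of 40481 mouse genes in the count table. They were chosen by gene symbol alone: Fcgr1, Fcgr3 and Fcgr4, the activating receptors, Fcgr2b, the inhibitory receptor, and Fcer1g, the gamma chain that the activating receptors need for signalling.

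Counts came from microglia (sorted with an antibody to CD11b) and astrocytes (sorted with an antibody to ACSA-2) of the cortex, hippocampus and thalamus of the same mice. The mice were APPPS1::APOE4fl/fl::ALDH1L1-CreERT (4 mice kept of 5 labelled), APPPS1::APOE4fl/fl (5 mice), APOE4fl/fl::ALDH1L1-CreERT (2 mice) and APOE4fl/fl (2 mice). All of them, controls included, carried a floxed human APOE4 gene in place of the mouse gene and were given tamoxifen (2 doses of 100 mg/kg) when 3.8 months old, with cells sorted 10 days afterwards. APPPS1 mice are a transgenic line that expresses mutant human APP in neurons and deposits amyloid. ALDH1L1-CreERT is a tamoxifen-dependent recombinase made in astrocytes, so that Cre-positive mice were designed to lose astrocytic APOE4. The amyloid-free groups of 2 mice limit every comparison with them. The labels hold 5 mice in either APPPS1 group, while the submitters' design text counts 4.

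Both libraries of 1 APPPS1 Cre-positive mouse, number 459, held the genes of the other sort, and this mouse was left out, which gave 13 libraries a sort. Total counts of the 26 libraries kept ran between 26162612 and 59238523. The 8 microglia markers summed to 25462 to 33836 CPM (reads of a gene scaled to the size of its library) in 12 of the microglia libraries and to 12954 CPM in that of mouse 26, an amyloid-free Cre-positive animal. The 8 astrocyte markers summed to 16035 CPM or more in every astrocyte library and to at most 359 CPM in the microglia libraries. Levels below are CPM after TMM scaling within a sort, which corrects for differences in library composition. A gene is said to have risen or fallen where its p from the quasi-likelihood test of edgeR, after Benjamini-Hochberg adjustment across every gene in the fit, was under 0.05. The p-values measure the spread between mice of a group.

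An IgG complex that binds an activating receptor leads Src family kinases to phosphorylate the ITAM motif of the gamma chain, which recruits the kinase Syk and starts phagocytosis and the oxidative burst. Fcgr2b carries an inhibitory motif in place of this, which recruits the lipid phosphatase SHIP1 (Inpp5d) and damps the same cascade. In mouse macrophages Fcgr1 binds monomeric IgG with high affinity, while Fcgr3 and Fcgr4 bind mainly immune complexes.

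Fcgr2b, Fcgr4, Fcgr3 and Fcer1g lie in this order within 276 kb of chromosome 1 (GRCm38, GENCODE M21). Fcgr2b spans chr1:170958617-170976547 on the minus strand, Fcgr4 chr1:171018920-171029761 on the plus strand, Fcgr3 chr1:171051174-171064935 on the minus strand and Fcer1g chr1:171229572-171234365 on the minus strand. Fcgr1 stands apart on chromosome 3, at chr3:96282909-96293969 on the minus strand. The next 4 sequences are shown for the 4 receptors, of which Fcgr1, Fcgr2b and Fcgr3 had closely correlated levels across the microglia libraries. The r of Fcgr4 with these 3 was negative over all 13 libraries and positive (0.42 to 0.56) without mouse 26. The sequences are the 250 bases before the RefSeq start of each gene, on the gene's own strand, from GRCm38.p6, with the PU box GAGGAA (either strand, here always as TTCCTC) and the STAT-binding GAS element TTCNNNGAA in capitals. PU boxes are bound by PU.1, the factor that directs macrophage and microglial gene expression, and GAS elements by STAT factors activated by interferons.
Fcgr1 (chr3:96293970-96294219, minus): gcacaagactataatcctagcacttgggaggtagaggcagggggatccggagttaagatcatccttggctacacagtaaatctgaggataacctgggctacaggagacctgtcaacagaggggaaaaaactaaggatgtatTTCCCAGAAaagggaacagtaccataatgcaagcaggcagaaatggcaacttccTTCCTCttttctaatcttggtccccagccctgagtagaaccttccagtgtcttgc
Fcgr2b (chr1:170976072-170976321, minus): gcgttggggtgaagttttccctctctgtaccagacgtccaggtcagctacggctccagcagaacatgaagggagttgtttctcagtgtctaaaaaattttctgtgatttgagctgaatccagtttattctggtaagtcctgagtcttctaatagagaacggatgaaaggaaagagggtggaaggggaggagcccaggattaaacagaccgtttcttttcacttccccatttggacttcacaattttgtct
Fcgr3 (chr1:171059404-171059653, minus): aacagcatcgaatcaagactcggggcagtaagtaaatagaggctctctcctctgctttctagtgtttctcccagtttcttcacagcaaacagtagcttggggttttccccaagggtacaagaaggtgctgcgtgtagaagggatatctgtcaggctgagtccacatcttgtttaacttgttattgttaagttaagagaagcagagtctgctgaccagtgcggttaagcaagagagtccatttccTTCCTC
Fcgr4 (chr1:171018676-171018925, plus): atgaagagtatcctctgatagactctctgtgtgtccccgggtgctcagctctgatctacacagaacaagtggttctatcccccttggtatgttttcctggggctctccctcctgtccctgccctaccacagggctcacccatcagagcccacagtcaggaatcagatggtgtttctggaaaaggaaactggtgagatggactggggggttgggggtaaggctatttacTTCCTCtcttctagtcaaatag
A PU box was found in 3 of the 5 windows: at -55 to -50 from the start in Fcgr1, at -6 to -1 in Fcgr3 and at -22 to -17 in Fcgr4. Of all 27025 RefSeq promoters of this length, 23.1% held one. A GAS element was found only in Fcgr1 among the 5, at -109 to -101, and in 7.18% of all promoters. The C/EBP half-site pair TTNNGNAA was present in Fcgr3 and Fcgr4 and in 36.9% of all promoters, and the E box CACGTG in none of the 5 and in 6.05% of all. Each match describes letters only. GENCODE models of Fcgr2b and Fcgr3 begin further upstream than these RefSeq starts, and those other starts were not searched.

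Fcgr2b and Fcgr3 are paralogs whose extracellular parts are nearly identical in stretches. The longest run shared by their coding sequences was 129 bases and is shown because it marks where a read cannot tell the genes apart: it covers coding bases 278 to 406 of Fcgr2b, within chr1:170966674-170968081, and 263 to 391 of Fcgr3, within chr1:171054167-171057792, crossing an intron in both.
Shared run, Fcgr2b and Fcgr3: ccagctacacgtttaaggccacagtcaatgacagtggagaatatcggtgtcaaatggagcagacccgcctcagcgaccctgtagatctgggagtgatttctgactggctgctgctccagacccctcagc
Of all 50-base windows of the coding sequence, 17.1% in Fcgr2b and 22.1% in Fcgr3 occurred in the other gene as well. No such window of Fcgr1, Fcgr4 or Fcer1g occurred in another gene. The sources used here do not say how the counting treated reads that fit both genes, so the levels of Fcgr2b and Fcgr3 are uncertain and may be linked. No protein-coding gene overlapped a member.

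In microglia all 5 genes were read in every library. Per kilobase of exon the order of mean levels was Fcer1g, at 1935 CPM per kb, then Fcgr3 at 1284, Fcgr1 at 100.2, Fcgr2b at 48.8 and Fcgr4 at 30.2 CPM per kb (n = 13 libraries). Fcer1g stood above Fcgr3 per kb in 12 of 13 libraries, with mouse 465 the exception, and Fcgr2b above Fcgr4 in 12 of 13, with mouse 26 the exception. Fcgr3 stood above Fcgr1, and Fcgr1 above Fcgr2b, in all 13. With the longest coding transcript as the length the order and these numbers of libraries held, while the gap between Fcgr1 and Fcgr2b narrowed to between 1.14-fold and 1.56-fold. The activating receptor Fcgr3 was read at 6.86 to 9.25 times the CPM of the inhibitory Fcgr2b in each library, a ratio without correction for length.

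In the astrocyte sort all 5 genes were close to 0. Fcgr1 averaged 259 ± 54.3 CPM in microglia and 0.0447 ± 0.0672 CPM in astrocytes (SD, n = 13 each). Its log2 fold change was 13.37 ± 0.37 (SE, edgeR, adjusted p = 2.81e-18). The size of this fold is uncertain, since the 13 astrocyte libraries held 25 Fcgr1 reads and 5 of them held none. Over all alternatives run it lay between 10.168 and 13.938. Fcgr3 averaged 2230 ± 552 CPM in microglia and 1.51 ± 2.94 CPM in astrocytes, and its log2 fold change was 11.48 ± 0.93 (edgeR adjusted p = 1.36e-10). For Fcer1g the levels were 1691 ± 331 CPM in microglia and 2.85 ± 6.38 CPM in astrocytes, and for Fcgr2b 283 ± 68.8 CPM in microglia and 0.725 ± 0.738 CPM in astrocytes. All 5 members were higher in microglia by this test, where 76.5% of all genes tested were called, 35.4% higher and 41.1% lower. For each member the 13 microglia libraries lay above all 13 astrocyte libraries. How many of all genes separate the sorts in this way was not counted. For Fcgr4 no fold is given, since 11 of 13 astrocyte libraries held no read of it, which allows up to 0.0822 CPM in the shallowest of them (3 counts, counting error only).

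**Figure D1:**
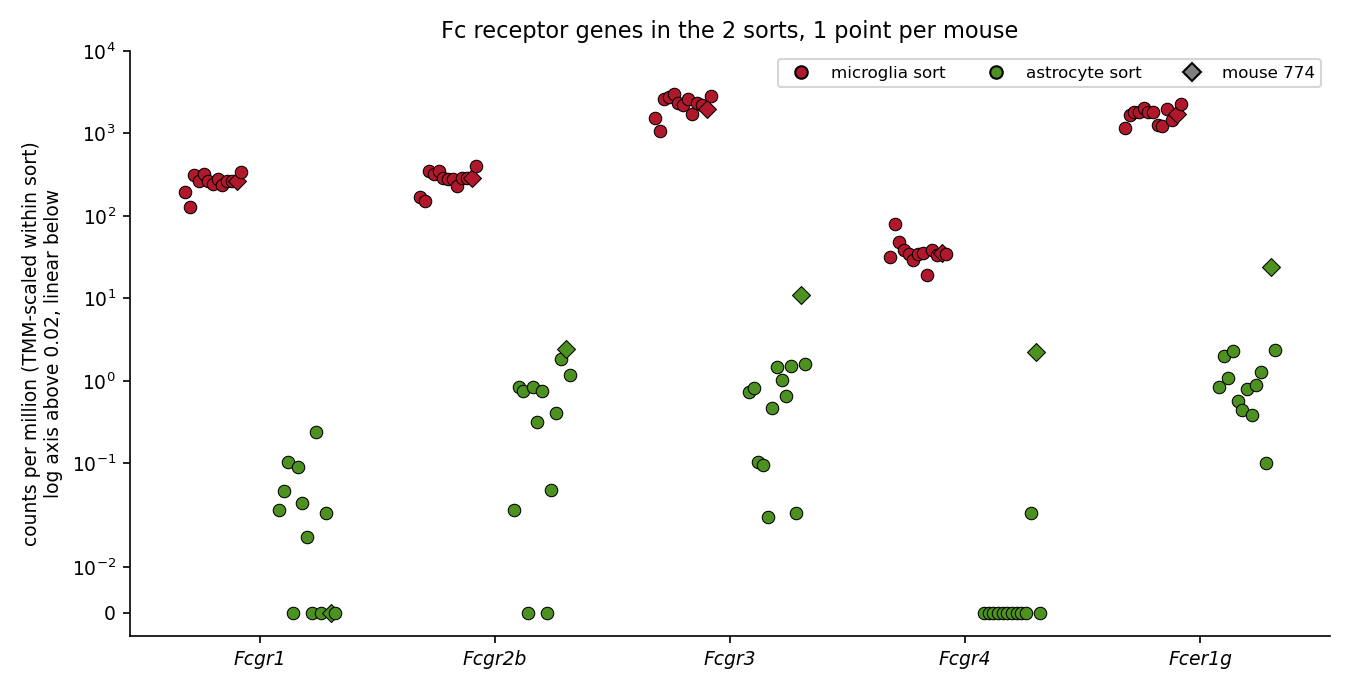
CPM of the 5 genes in each library, the microglia sort left and the astrocyte sort right of each gene name, on a log axis that is linear below 0.02. For these 5 genes every microglia library lies above every astrocyte library, a separation that was not counted over all genes. The astrocyte library of mouse 774 (diamond) is the highest of its sort for Fcgr2b, Fcgr3, Fcgr4 and Fcer1g.

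The few Fc receptor reads of the astrocyte sort were unevenly spread. The astrocyte library of mouse 774, an APPPS1 Cre-negative animal, held 1016 of the 1580 Fcer1g reads of the sort, 471 of the 860 Fcgr3 reads and 94 of the 95 Fcgr4 reads, and none of Fcgr1. In the same library the 12 monocyte and neutrophil markers summed to 428 CPM, against at most 10.4 CPM in the other 12 astrocyte libraries, with S100a8 at 180 CPM. The 8 microglia markers summed to 126 CPM there, within the 94.8 to 142 CPM of all astrocyte libraries. The part of such cells in these reads was not tested. Without mouse 774 the mean astrocyte level was 0.0187% of the microglial one for Fcgr1, 0.0319% for Fcgr3, 0.0647% for Fcer1g, 0.00552% for Fcgr4 and 0.207% for Fcgr2b. In the same libraries Trem2 was the lowest of the 8 microglia markers, at 0.0202%, P2ry12 was at 0.186% and Sall1 was the highest, at 17.2%. Fcgr2b, Fcgr3 and Fcer1g lay within the range of these markers, and Fcgr1 and Fcgr4 lay below it. Fcgr2b had 308 reads in these 12 libraries and Fcgr1 had 25, although both were read at about the same CPM in microglia. The 8 endothelial markers summed to 690 to 1259 CPM in the astrocyte libraries and to at most 189 CPM in the microglia libraries, and the part of endothelial cells in the Fcgr2b reads was not tested.

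Within the astrocyte sort only Fcgr2b, Fcgr3 and Fcer1g had enough reads to be tested. None was called with amyloid or, in APPPS1 mice, with Cre, and the 95% intervals were wide. With amyloid they were -2.515 to 2.464 for Fcgr2b, -1.436 to 3.953 for Fcgr3 and -0.034 to 4.334 for Fcer1g. With Cre that of Fcer1g was -4.529 to 0.005. Fcer1g averaged 3.75 ± 7.61 CPM in APPPS1 astrocytes (n = 9) and 0.839 ± 0.848 CPM in amyloid-free astrocytes (SD, n = 4), and 1.21 ± 0.815 CPM in Cre-positive (n = 4) and 5.78 ± 10.2 CPM in Cre-negative APPPS1 mice (n = 5). With amyloid the log2 fold change of Fcer1g was 2.15 ± 1.01 (SE, edgeR adjusted p = 0.722), where 0% of all genes were called (1409 had an unadjusted p under 0.05, and DESeq2 called 254), and with Cre it was -2.26 ± 1.05 (edgeR adjusted p = 0.743), where 0.00997% were. Without mouse 774 the log2 fold change of Fcer1g was 1.02 with amyloid and -0.038 with Cre.

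The question of the study was whether removal of astrocytic APOE4 changes the glial response to amyloid. In microglia of APPPS1 mice none of the 5 genes was called between Cre-positive and Cre-negative animals. Fcgr1 was at 266, 268, 242 and 261 CPM in Cre-positive mice, against 314, 321, 239, 265 and 335 CPM in Cre-negative mice. Fcgr3 was at 2774, 2329, 2203 and 2328 CPM in Cre-positive mice, against 2598, 2954, 1693, 1966 and 2795 CPM in Cre-negative mice. For all 5 genes the Cre-negative mice spread wider and enclosed every Cre-positive value, with mouse 469 the lowest. The log2 difference was -0.19 for Fcgr1 (95% interval -0.50 to 0.12), -0.14 for Fcgr2b (-0.46 to 0.18), 0.00 for Fcgr3 (-0.38 to 0.39), 0.02 for Fcgr4 (-0.53 to 0.57) and 0.02 for Fcer1g (-0.34 to 0.38), all with an edgeR adjusted p of 1. Of all genes tested 0.00568% were called in this comparison, which is 1 gene, and 616 had an unadjusted p under 0.05. The groups overlapped for all 5 members and did not overlap for 1.42% of all genes. Exact two-sided permutation tests of log2 CPM gave p between 0.143 and 0.873 for the 5 members, where the smallest p possible was 0.00794.

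**Figure D2:**
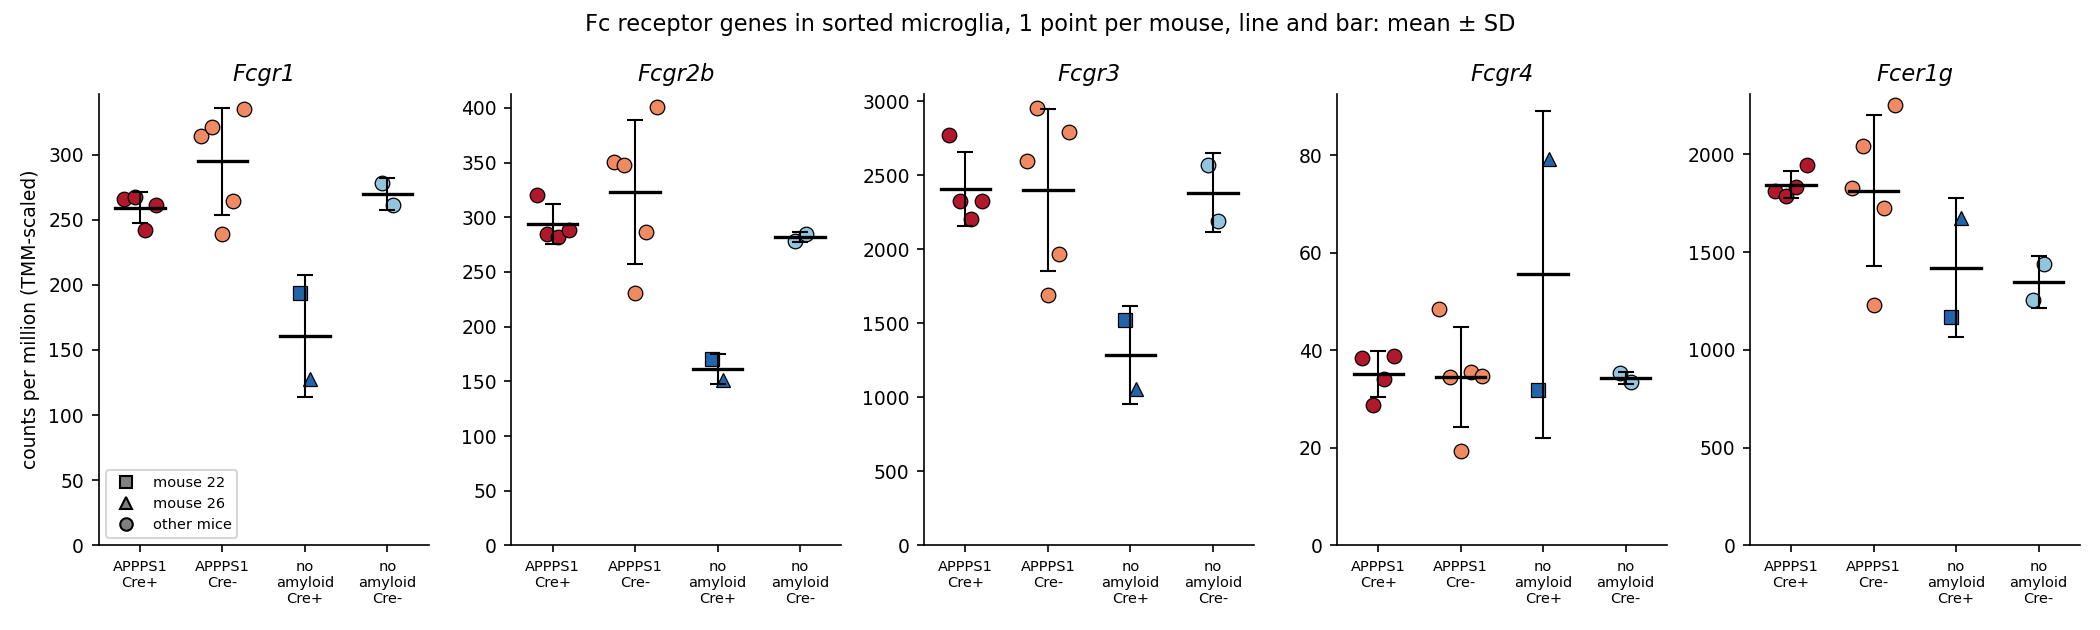
CPM of the 5 genes in the 13 microglia libraries by genotype, with the group mean and SD. Mice 22 (square) and 26 (triangle), the amyloid-free Cre-positive pair, are the lowest for Fcgr1, Fcgr2b and Fcgr3, and mouse 26 is the highest for Fcgr4.

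With amyloid, averaged over both Cre states, the inhibitory receptor Fcgr2b rose in microglia and the other 4 members did not pass the test. Fcgr2b was at 231, 288 and 401 CPM in APPPS1 microglia (lowest, median and highest of 9) and at 151, 171, 278 and 285 CPM in amyloid-free microglia. The groups overlapped, and the 2 low amyloid-free values belonged to the Cre-positive mice 26 and 22. The log2 fold change of Fcgr2b was 0.53 ± 0.14 (SE, edgeR adjusted p = 0.0286). Of 17593 genes tested 9.58% were called and 6.06% were higher, so 1 of 5 members is near that background. The groups overlapped for all 5 members, and did not overlap for 4% of all genes. Fcgr1 had a log2 fold change of 0.41 ± 0.13 (edgeR adjusted p = 0.0648), Fcgr3 of 0.46 ± 0.16 (0.0900) and Fcer1g of 0.40 ± 0.15 (0.108). Exact two-sided permutation tests of log2 CPM gave unadjusted p of 0.014 for Fcgr2b, 0.0168 for Fcer1g, 0.035 for Fcgr1, 0.0531 for Fcgr3 and 0.362 for Fcgr4, with 0.0014 the smallest possible. They shuffled all 13 libraries without regard to Cre state and compared pooled group means, not the average over Cre that edgeR tested. Only the members were permuted, so no share of all genes stands beside these p-values. By edgeR 4783 of the 17593 genes had an unadjusted p under 0.05 in this comparison. DESeq2 called 4 members, all but Fcgr4, in a test that called 15.5% of all genes.

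Fcgr4 gave -0.33 ± 0.23 (SE, edgeR adjusted p = 0.380), the only negative value among the 5. This sign rested on 1 library, since without mouse 26 the value was 0.10. The call of Fcgr2b was lost without mouse 26, 465 or 759, at adjusted p of 0.101, 0.0822 and 0.0891, all amyloid-free animals, with log2 fold changes of 0.51, 0.56 and 0.57. Without mouse 26 2.32% of all genes were called. Without mouse 469, the lowest APPPS1 library, 4 members were called (Fcgr1, Fcgr2b, Fcgr3 and Fcer1g), where 13.9% of all genes were called, and without mouse 22 there were 3 (Fcgr1, Fcgr2b and Fcgr3), where 10.5% of all genes were called.

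The 2 Cre states differed in the values behind this average. In Cre-positive mice Fcgr1, Fcgr2b and Fcgr3 rose with amyloid. Fcgr2b was at 321, 285, 282 and 288 CPM in APPPS1 Cre-positive mice, against 171 and 151 CPM in amyloid-free Cre-positive mice, a log2 fold change of 0.87 ± 0.20 (SE, edgeR adjusted p = 0.0275). Fcgr3 was at 1522 and 1054 CPM in the amyloid-free Cre-positive mice, below every APPPS1 value given above, and its log2 fold change was 0.90 ± 0.24 (edgeR adjusted p = 0.0393). Fcgr1 was at 194 and 128 CPM in the amyloid-free Cre-positive mice, with a log2 fold change of 0.69 ± 0.19 (edgeR adjusted p = 0.0458). The groups did not overlap for these 3 genes and for Fcer1g, in a comparison where 36.4% of all genes did not overlap and 7.05% were called, 3.65% higher and 3.39% lower. DESeq2 called Fcgr1, Fcgr2b and Fcgr3 as well, and 13.7% of all genes. The exact permutation test was at its smallest possible p of 0.0667 for those 4 genes.

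Fcer1g was at 1814, 1786, 1833 and 1947 CPM in APPPS1 Cre-positive mice, against 1169 and 1673 CPM in amyloid-free Cre-positive mice (log2 fold change 0.38 ± 0.22, SE, edgeR adjusted p = 0.293). Fcgr4 was at 38.4, 28.8, 34.2 and 38.9 CPM in APPPS1 Cre-positive mice, against 31.8 and 79.3 CPM in amyloid-free Cre-positive mice. Mouse 22 lay within the APPPS1 range for Fcgr4 and mouse 26 above it. The log2 fold change was -0.66 ± 0.33 (SE, edgeR adjusted p = 0.208), and it was 0.18 without mouse 26.

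No member was called in Cre-positive mice without mouse 26, where the group of amyloid-free Cre-positive mice is 1 library that is assumed to vary like the other groups. The log2 fold changes were then 0.46 for Fcgr1, 0.82 for Fcgr2b and 0.70 for Fcgr3, at adjusted p of 0.404, 0.292 and 0.346, and 0% of all genes were called. Leaving out APPPS1 mouse 443, 458 or 475 also left 0 members called, the lowest adjusted p being 0.0505, 0.0615 and 0.0594, all for Fcgr2b. The call of Fcgr1 was also lost without mouse 439, 447, 460, 465, 759 or 774 (edgeR adjusted p between 0.051 and 0.0614), so that it was kept without only 3 of the 13 mice, 22, 469 and 779. With the Cre-positive groups fitted alone Fcgr1 was not called either (0.68, edgeR adjusted p = 0.0675). Without mouse 22 there were 4 calls: Fcgr1, Fcgr2b, Fcgr3 and, as a decrease, Fcgr4 (-1.09, edgeR adjusted p = 0.0475), where 9.95% of all genes were called.

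In Cre-negative mice no member was called with amyloid. Fcgr3 averaged 2401 ± 545 CPM in APPPS1 mice (n = 5) and 2384 ± 268 CPM in amyloid-free mice (SD, n = 2), a log2 fold change of 0.01 (95% interval -0.47 to 0.49). Fcgr2b was at 351, 347, 231, 286 and 401 CPM in APPPS1 mice, against 278 and 285 CPM in amyloid-free mice, with a log2 fold change of 0.20 (95% interval -0.20 to 0.60). For these 2 genes the amyloid-free values lay inside the APPPS1 range. Fcer1g was at 1827, 2043, 1228, 1724 and 2252 CPM in APPPS1 mice, against 1253 and 1440 CPM in amyloid-free mice, at 0.43 (95% interval -0.03 to 0.89). Fcgr4 was at 48.4, 34.5, 19.4, 35.6 and 34.8 CPM in APPPS1 mice, against 35.2 and 33.5 CPM in amyloid-free mice, at 0.01 (95% interval -0.68 to 0.70). For these genes too the groups overlapped, as they did for Fcgr1, and 15.2% of all genes did not overlap. Of all genes 0.313% were called, 0.279% higher and 0.0341% lower. The difference between the Cre states was itself not called for any member: it was 0.89 ± 0.32 for Fcgr3 (SE, edgeR adjusted p = 0.524), 0.67 ± 0.27 for Fcgr2b (0.538), 0.56 ± 0.26 for Fcgr1 (0.573), -0.67 ± 0.46 for Fcgr4 (0.681) and -0.06 ± 0.30 for Fcer1g (0.971). The first 3 had unadjusted p of 0.0146, 0.0253 and 0.0493. By edgeR 0 of all genes were called for this difference, with 1527 at an unadjusted p under 0.05, and DESeq2 called 51 genes and 0 members.

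**Figure D3:**
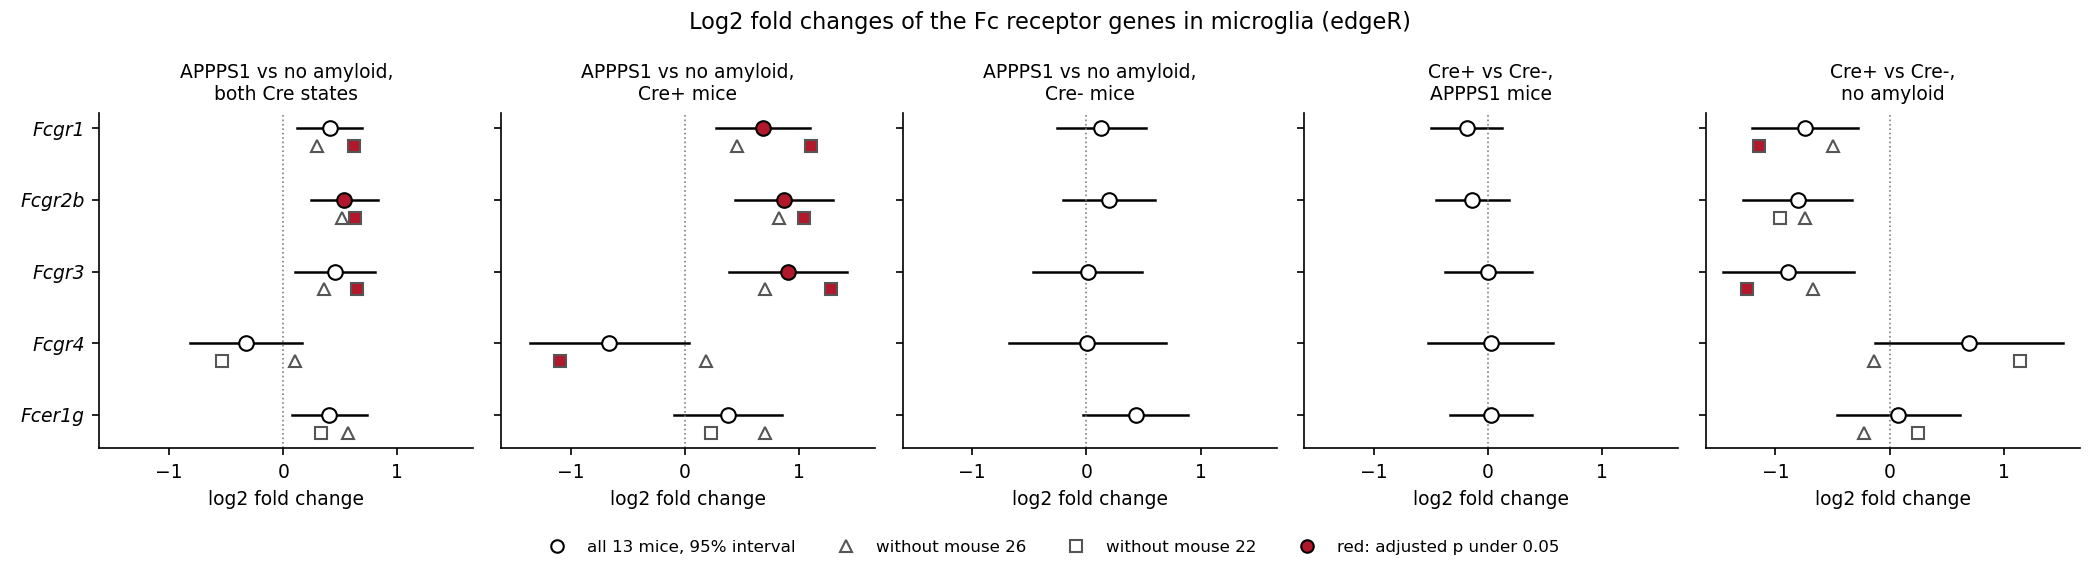
Log2 fold changes of the 5 genes in microglia with 95% intervals (circles), and the values without mouse 26 (triangles) and without mouse 22 (squares); red marks an adjusted p under 0.05. Fcgr1, Fcgr2b and Fcgr3 were called in Cre-positive mice with all libraries, none was called without mouse 26, and Fcgr4 changed sign without it.

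The remaining comparison, Cre-positive against Cre-negative mice without amyloid, rested on the same 4 animals. Fcgr3 was at 1522 and 1054 CPM in Cre-positive mice, against 2573 and 2195 CPM in Cre-negative mice. Fcgr1 was at 194 and 128 CPM in Cre-positive mice, against 278 and 261 CPM in Cre-negative mice. The pairs did not overlap for Fcgr1, Fcgr2b and Fcgr3, as for 46.1% of all genes, and no member was called. The log2 differences were -0.74 for Fcgr1, -0.81 for Fcgr2b and -0.89 for Fcgr3 (edgeR adjusted p = 0.224, 0.207 and 0.231), where 0.0114% of all genes were called, and the smallest exact permutation p possible was 0.333. This comparison and the comparison with amyloid in Cre-positive mice share the libraries of mice 22 and 26.

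Those 2 libraries also stood apart in cell markers. The library of mouse 26 had the lowest sum of the 8 microglia markers, 12954 CPM, and mouse 22 the next lowest, 25462 CPM, against 27487 to 33836 CPM in the other 11. Its 12 monocyte and neutrophil markers summed to 8175 CPM, the highest value, followed by 7325 CPM in mouse 439 (APPPS1 Cre-negative) and 3742 CPM in mouse 22, against 298 to 2853 CPM in the other 10. T and NK cell markers summed to 121 CPM in mouse 26 and to at most 29.9 CPM elsewhere, and endothelial markers to 189 CPM and at most 83.7 CPM. Astrocyte markers in the microglia sort summed to 162 to 222 CPM in APPPS1 Cre-positive mice and 144 to 228 CPM in APPPS1 Cre-negative mice, against 291 and 186 CPM in amyloid-free Cre-positive and 359 and 301 CPM in amyloid-free Cre-negative mice. With amyloid in Cre-positive mice 5 of 8 astrocyte markers fell (median log2 fold change -3.79) and 5 of 8 endothelial markers fell (median -2.15), where 3.39% of all genes fell. In the same comparison 2 of 8 microglia markers rose (median 0.40) and 3 of 10 border macrophage markers rose (median 0.83). None of either list fell, and 3.65% of all genes rose. Of the monocyte and neutrophil, B cell, and T and NK cell markers tested, 1 of 12, 1 of 4 and 2 of 7 fell. Their median log2 fold changes were -1.865, -2.900 and -2.678, and 12 of 12, 3 of 4 and 7 of 7 values were negative. Averaged over Cre, 3 of 8 astrocyte markers fell and 1 rose, and 4 of 8 endothelial markers fell. There 2 of 8 microglia markers rose and 1 of 10 border macrophage markers fell. B cell markers (39.8 to 68.0 CPM) and mast cell markers (at most 5.88 CPM) were low throughout. Border macrophage markers summed to 856 and 682 CPM in the amyloid-free Cre-negative mice, against 278 to 579 CPM in the other 11 libraries. Every gene of the microglia, border macrophage, monocyte and neutrophil, T and NK cell and endothelium lists was read in at least 1 microglia library. In a bulk sample fewer microglia and less receptor RNA per microglial cell cannot be told apart, and the part of other cells in the member values was not tested.

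**Figure D4:**
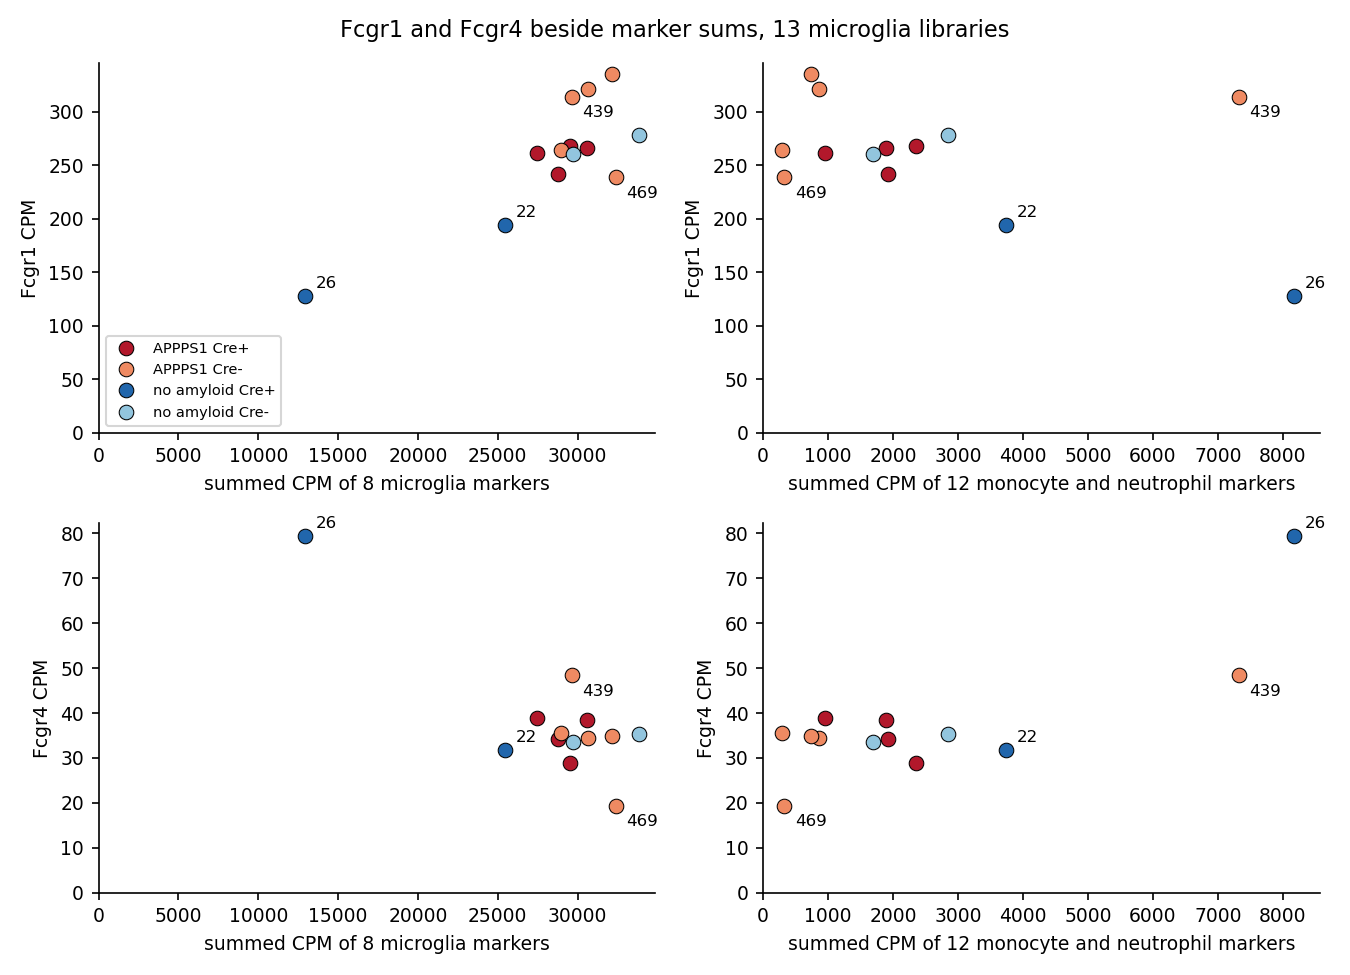
CPM of Fcgr1 and Fcgr4 against the summed CPM of microglia markers and of monocyte and neutrophil markers in the 13 microglia libraries, coloured by genotype. Mouse 26 combines the lowest microglia sum and Fcgr1 level with the highest monocyte and neutrophil sum and Fcgr4 level; mouse 439 has a high monocyte and neutrophil sum with Fcgr1 at 314 CPM and the second highest Fcgr4 level.

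Mouse 439, with 7325 CPM of monocyte and neutrophil markers, had 29627 CPM of microglia markers. Mouse 26, with 8175 CPM of the former, had 12954 CPM of the latter. The library of mouse 439 had 314 CPM of Fcgr1 and 48.4 CPM of Fcgr4, the highest Fcgr4 level of the 9 APPPS1 libraries, which otherwise ran between 19.4 and 38.9 CPM. The ratio of Fcgr3 to Fcgr4 was 13.3 in mouse 26 and 47.9 to 87.2 in the other 12 libraries, and that of Fcer1g to Fcgr3 was 1.59 in mouse 26 and 0.487 to 0.877 elsewhere. The ratio of Fcgr2b to Fcgr1 stayed between 0.880 and 1.21 in all 13.

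Across the 13 microglia libraries the log2 CPM of Fcgr1, Fcgr2b and Fcgr3 moved together. Pearson's r was 0.94 for each of the 3 pairs, and 0.79 to 0.92 after group means were taken out. The part of shared reads in the r of Fcgr2b and Fcgr3 was not tested. Fcgr4 had r of -0.47 with Fcgr1 and -0.25 with Fcgr2b, which became 0.42 and 0.49 without mouse 26. Fcer1g had r of 0.39 with Fcgr1 and 0.62 with Fcgr2b, and 0.71 and 0.83 without mouse 26. These r describe the libraries, which share their genotypes and scaling.

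The genes closest to each member by r over the same 13 libraries differed between members. For Fcgr1 they were Mesd (r = 0.98), a chaperone of lipoprotein receptors, and the membrane protein genes Tmem176b and Tmem176a (0.97 each). For Fcgr2b they were Ormdl2, a regulator of sphingolipid synthesis, Nsfl1c and Mdh1, the cytosolic malate dehydrogenase (0.96 each). For Fcgr3 they were Il10rb, a subunit of the interleukin-10 receptor (0.96), Sccpdh and Mdh1 (0.94 each). Fcgr4 lay closest to Ifitm3, an interferon-induced antiviral gene (0.95), the glycerol kinase gene Gk and Rab29 (0.94 each), and these r were 0.86 to 0.88 without mouse 26. Fcer1g lay closest to Rpl10, a ribosomal protein gene, and Cox6b1, a subunit of cytochrome c oxidase (0.98 each), and to Rpl7 (0.97). After removal of group means these r were between 0.87 and 0.98.

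The genes that work with the Fc receptors changed in a mixed way with amyloid in microglia, averaged over Cre, where 6.06% of all genes rose and 3.52% fell. Of the partners and other Fc receptors, 12 of 13 genes were tested, 2 rose and 0 fell, with a median log2 fold change of -0.06 against -0.05 over all genes. Tyrobp, the ITAM adaptor of TREM2 and other receptors, averaged 3288 ± 899 CPM in APPPS1 microglia (n = 9) and 1347 ± 101 CPM in amyloid-free microglia (SD, n = 4), a log2 fold change of 1.29 ± 0.23 (SE, edgeR adjusted p = 0.00567). Fcrls, an Fc receptor-like gene typical of microglia, averaged 4423 ± 619 CPM in APPPS1 and 2731 ± 1095 CPM in amyloid-free microglia, at 0.74 ± 0.19 (adjusted p = 0.0270). Hcst, another signalling adaptor, and Fcgrt, the neonatal Fc receptor that recycles IgG, gave 0.62 and 0.34 and were not called (adjusted p = 0.0822 and 0.119). Without mouse 26 Tyrobp was called at 1.37 and Fcrls was not, at 0.52 (adjusted p = 0.0638).

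Among kinases and adaptors downstream of the ITAM, all 28 genes were tested, 1 rose and 6 fell, and the median was -0.20. Lat2, an adaptor of ITAM signalling, averaged 328 ± 59.9 CPM in APPPS1 microglia and 182 ± 32.7 CPM in amyloid-free microglia, at 0.85 ± 0.15 (SE, edgeR adjusted p = 0.00567). Syk, the kinase recruited by the gamma chain, averaged 86.9 ± 12.1 CPM in APPPS1 and 126 ± 28.6 CPM in amyloid-free microglia, at -0.54 ± 0.13 (adjusted p = 0.0193). Pik3r1, a regulatory subunit of phosphoinositide 3-kinase, gave -0.86 (adjusted p = 0.0343), and Vav3, an exchange factor for small GTPases, -1.70 (adjusted p = 0.0285). The other 3 that fell were Prkcd, Pik3r5 and Lyn, named here after their values were seen because they complete the count. None of the 6 falls was called without mouse 26, where Syk was at -0.38 (adjusted p = 0.138), Pik3r1 at -0.83 (0.116) and Vav3 at -0.86 (0.315), while Lat2 was called at 0.82.

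Of the 15 inhibitory phosphatases and adaptors 1 rose and 1 fell, with a median of -0.16. Cd72, a receptor with an inhibitory motif, averaged 59.0 ± 21.4 CPM in APPPS1 and 15.2 ± 4.28 CPM in amyloid-free microglia, at 1.97 ± 0.33 (SE, edgeR adjusted p = 0.00439), and was called without mouse 26 at 1.93. Cblb, a ubiquitin ligase, fell at -1.03 ± 0.25 (adjusted p = 0.0232), and was not called without mouse 26 (-0.42, adjusted p = 0.285). Dok1 and Pirb were not called, at 0.37 and -1.02. Inpp5d, the phosphatase that Fcgr2b recruits, was at -0.16 (adjusted p = 0.476); it stands outside the naming rule and is given for its role.

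Of the 7 genes of the phagosomal NADPH oxidase, which makes superoxide during phagocytosis, 2 rose and 0 fell, with a median of -0.03. They were Hvcn1, the proton channel that balances the charge of the burst (0.87 ± 0.21, SE, edgeR adjusted p = 0.0224), and Cyba, the small membrane subunit (0.57 ± 0.17, adjusted p = 0.0448). Cybb, the catalytic subunit, gave -0.84 and Ncf4, a cytosolic subunit, -0.46, neither called (adjusted p = 0.128 and 0.172). Without mouse 26 no gene of the list was called, Cybb being at 0.03.

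Of the 8 other receptors that signal through the gamma chain 6 were tested, 0 rose and 1 fell, with a median of -1.45. Clec4e, a C-type lectin for microbial glycolipids, averaged 29.1 ± 18.7 CPM in APPPS1 and 135 ± 176 CPM in amyloid-free microglia, at -1.77 ± 0.49 (SE, edgeR adjusted p = 0.0373). Clec4d (-1.57), Pira2 (-1.36) and Clec4n (-1.01) were not called. Without mouse 26 none was called, Clec4e being at -0.76 (edgeR adjusted p = 0.424).

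Of the 10 immunoglobulin constant genes listed 9 were analysed and 6 were tested, of which 1 rose and 0 fell, with a median of -0.75 and 4 of 6 values negative. Ighm, the constant region of IgM, which is not a ligand of the Fc gamma receptors, averaged 898 ± 108 CPM in APPPS1 and 619 ± 174 CPM in amyloid-free microglia, at 0.55 ± 0.16 (SE, edgeR adjusted p = 0.0468), and it was not called without mouse 26 (0.37, adjusted p = 0.156). The light chain genes Igkc and Iglc2 averaged 2.85 and 0.113 CPM in APPPS1 microglia, against 5.02 and 0.519 CPM in amyloid-free microglia. Ighg2b, an IgG heavy chain gene, averaged 0.856 CPM in APPPS1 and 0.501 CPM in amyloid-free microglia, and none of these 3 was called. With Cre in APPPS1 mice 0 genes of any of these 6 lists were called by edgeR.

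**Figure D5:**
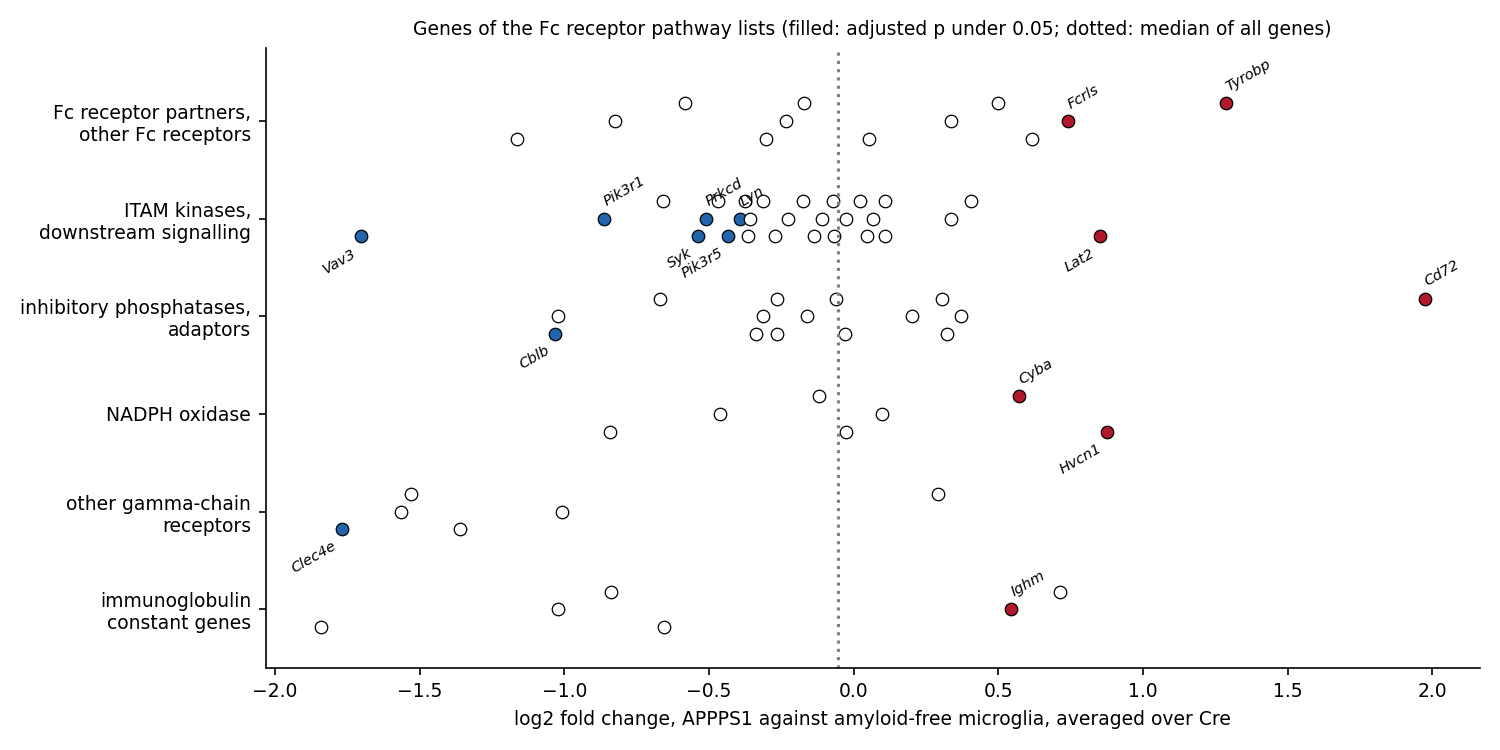
Log2 fold change with amyloid, averaged over Cre, of each tested gene of the 6 lists (1 point per gene), filled where the adjusted p was under 0.05, with the median of all genes dotted. Tyrobp, Lat2 and Cd72 rose and stayed called without mouse 26; the genes that fell did not.

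The 2 windows around the receptors gave different counts with amyloid, set beside the 6.06% of all genes that rose and the median log2 fold change of -0.05 over all genes. Within 300 kb of the chromosome 1 members 27 of 29 other protein-coding genes were tested with amyloid averaged over Cre, and 1 rose, Sdhc, a subunit of succinate dehydrogenase (0.53 ± 0.13, SE, edgeR adjusted p = 0.0216), which lies between Fcgr3 and Fcer1g. The median there was 0.10. Around Fcgr1 15 of 21 were tested and 4 rose: Hist2h4 (1.75), Mtmr11 (1.77), Sf3b4 (0.71) and Bola1 (0.62), with a median of 0.20. The difference between the windows was not tested. Whether these rises keep their calls without mouse 26 was not examined. None fell in either window, and none was called with Cre in APPPS1 mice.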

How the data were processed

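The deposited values are raw read counts per gene over a joint mouse and human gene list; per the submitters' processing notes the authors used bcl2fastq, STAR and Subread's featureCounts, and name GRCm38 and GRCh38 as genome builds. Per the labels' protocols, total RNA of sorted cells was made into SMARTer libraries. Strand and counting settings are not described. From the counts of 40481 mouse genes, genes were filtered with filterByExpr by group, scaled by TMM and tested with the quasi-likelihood test of edgeR 4.0.16 (R 4.3.3), with 1 fit per sort over 4 groups (17593 genes in microglia, 20052 in astrocytes) and 1 fit over both sorts (21612 genes). DESeq2 1.42.0 was an alternative. Adjusted p-values are Benjamini-Hochberg over all genes of a fit. The scripts were tested on simulated data. Both sorts come from the same mice by the labels; deviations of a mouse's 2 libraries from their group means correlated at -0.038 to 0.078. Alternatives were other scaling and filters, DESeq2, groups fitted alone, permutation tests, mouse 459 kept, a replicate block and single mice left out. The floor for a count of 0 covers counting error only. The members and lists were chosen with earlier results of these data known. Named are all members, up to 4 genes of each pathway list with the lowest p with amyloid averaged over Cre in microglia, the 3 genes of highest r for each member, and neighbours within 300 kb that passed; exceptions are marked. Iglc1 was not analysed here.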

Additional observations from a re-analysis of the deposited data

Results flagged for a closer look

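In the microglia of APPPS1 Cre-positive mice, Fcgr2b stood at 321 CPM in mouse 443, apart from the 282 to 288 CPM of the other 3 mice. In the astrocyte sort of APPPS1 Cre-negative mice, mouse 774 stood apart with 11.1 CPM of Fcgr3, 2.22 CPM of Fcgr4 and 23.9 CPM of Fcer1g, where the highest values of all other astrocyte libraries were 1.58, 0.0251 and 2.40 CPM. Its monocyte and neutrophil markers summed to 428 CPM, and their part in these values was not tested. Of 19 groups tested for a lone sample 4 gave one, where chance gives about 1 in 20. All but that of mouse 443 came from the astrocyte library of mouse 774. The genes were read in the same libraries, so these tests are not independent.

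The library labelled astrocyte of mouse 459, which enters no comparison, held 368 CPM of Fcgr1, 318 CPM of Fcgr2b, 2540.45 CPM of Fcgr3, 48.0 CPM of Fcgr4 and 2146 CPM of Fcer1g without TMM scaling, against at most 0.232, 2.46, 11.4, 2.27 and 24.5 CPM in the other 13 astrocyte libraries. The library labelled microglia of the same mouse held 0, 0.0421, 2.87, 0 and 1.43 CPM of the same genes.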

How the results depend on the processing

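All 5 members were called higher in microglia than in astrocytes under every alternative run, and the mouse as a replicate block (pairing the sorts) left 5 called; it changed no call of a member. For amyloid averaged over Cre, 1 member was called, but 4 by DESeq2, 3 by unadjusted permutation p and 0 with mouse 459 kept as labelled; leaving out single mice gave 0 to 4. In Cre-positive mice 3 were called, 0 with mouse 459 kept, and 0 to 4 without single mice. For Cre in amyloid-free mice 0 were called, 1 by DESeq2 and 0 to 2 without single mice. The cause was not tested. Permutation tests were run for the members only, so no share of all genes stands beside those 3. By edgeR 4783 of 17593 genes had an unadjusted p under 0.05 with amyloid averaged over Cre. DESeq2 called 15.5% of all genes with amyloid averaged over Cre, and 342 genes for Cre in amyloid-free mice.

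Signs that turned were as follows, in log2 fold change. For amyloid in Cre-negative mice, Fcgr3 and Fcgr4 were -0.003 and -0.004 with the groups fitted alone, and -0.017 and -0.049 as log2 CPM differences. The interaction of Fcer1g was 0.007 with no filter. With mouse 459 kept, Cre in APPPS1 microglia gave -0.316 for Fcgr3, -0.298 for Fcgr4 and -0.297 for Fcer1g. In astrocytes with mouse 459 kept, amyloid gave 3.924 for Fcgr2b, and Cre gave 6.441 for Fcgr2b, 8.070 for Fcgr3 and 6.728 for Fcer1g. With mouse 459 left out, the log2 CPM difference of Fcgr2b with amyloid in astrocytes was 0.792.

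Leaving out single mice, the ranges that crossed 0 were, for amyloid averaged over Cre, -0.538 to 0.10 for Fcgr4, -1.175 to 0.034 for Cybb, -1.620 to 0.713 for Igkc and -2.493 to 0.093 for Iglc2. In Cre-negative mice they were -0.099 to 0.144 for Fcgr3 and -0.144 to 0.145 for Fcgr4, and in Cre-positive mice -1.092 to 0.182 for Fcgr4. For the interaction they were -1.109 to 0.165 for Fcgr4 and -0.212 to 0.260 for Fcer1g. For Cre in APPPS1 mice they were -0.083 to 0.089 for Fcgr3, -0.113 to 0.174 for Fcgr4 and -0.072 to 0.113 for Fcer1g. For Cre in amyloid-free mice they were -0.133 to 1.140 for Fcgr4 and -0.224 to 0.247 for Fcer1g. In astrocytes they were -0.536 to 4.146 for Fcgr2b with amyloid and -1.971 to 0.589 for Fcgr3 with Cre. The list counts without mice 22 and 26 and the second gene length were chosen after seeing the data. A group left with 1 library was assumed to vary like the others.

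Counts of all genes called over the alternatives ran between 19 and 2722 for amyloid averaged over Cre (1685 as reported), 0 and 461 in Cre-negative mice (55), 0 and 2407 in Cre-positive mice (1240), 0 and 107 for the interaction (0), 1 and 6 for Cre in APPPS1 mice (1), 0 and 849 for Cre in amyloid-free mice (2), 0 and 254 for amyloid in astrocytes (0), and 1 and 36 for Cre in astrocytes (2).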
